A study of Mus musculus with 18 samples.

Results

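The noncoding RNAs described here are the core RNAs of small ribonucleoprotein machines that splice, target or regulate other RNA and protein. They are the spliceosomal RNAs *Rnu5g* (U5), *Rnu11* (U11) and *Rnu12* (U12), the 7SL RNAs *Rn7s1* and *Rn7s2* of the signal recognition particle, the 7SK RNA *Rn7sk*, and the catalytic RNAs *Rmrp* and *Rpph1*. Members were the rows of the raw count table whose Ensembl identifier GENCODE M21 gives 1 of these 8 symbols. The 8 symbols held 9 of the 54838 rows, since *Rmrp* has 2 identifiers. Of these 9 rows, 6 had any count, and the same 6 were among the 14181 genes that passed the filter on low counts. The RNAs were chosen by their polysomal minus total values in LY6G, LY6C and BM, which were already known. Those values are therefore given as a description with no test.

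RNA was sequenced from wild-type (WT) C57BL/6 mice in 3 kinds of sample. LY6G and LY6C are 2 populations of MDSC, myeloid-derived suppressor cells, which are immature and dampen T cell responses. Both were CD11b-high cells differentiated in culture from marrow over 5 days, LY6G being Ly6G-high and Ly6C-intermediate and LY6C being Ly6G-negative and Ly6C-high. They were sorted, put back in culture and harvested on the next day. BM is marrow flushed from femurs and cleared of red cells with a lysis buffer. It holds many cell types, and no culture or sort is given for it, so BM differs from the sorted populations in culture, sorting and cell mixture together. Each kind gave a polysomal fraction (P), collected from a sucrose gradient loaded with cytoplasmic extract, and total RNA (T). Cycloheximide, which stalls ribosomes on mRNA, was used for the sorted cells and in the lysis buffer of every sample. The 18 libraries form 6 groups of 3, with the numbers 2, 3 and 6 in LY6G and LY6C and 1, 2 and 3 in BM.

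Small nuclear RNAs (snRNAs) join proteins to form the spliceosome, which removes introns in the nucleus. U5 holds the exon ends together in the spliceosome. U11 and U12 belong to the minor spliceosome, which removes a rare class of introns, U11 pairing with the 5′ splice site and U12 with the branch point. The 7SL RNA is the scaffold of the signal recognition particle (SRP), a cytoplasmic particle that binds ribosomes making secreted or membrane proteins. The 7SK RNA, a nuclear RNA, holds the elongation kinase P-TEFb inactive through HEXIM proteins. *Rmrp* encodes the RNA of RNase MRP, which cuts precursor ribosomal RNA, and *Rpph1* that of RNase P, which trims precursor tRNA. None of these RNAs is translated. RNA polymerase II makes U5, U11 and U12, and RNA polymerase III makes the others.

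The sequences of U11, U12 and the start of 7SK are shown with capitals at short runs known to bind proteins in such RNAs. They are printed 5′ to 3′ as DNA letters from the GENCODE M21 transcripts (GRCm38). In U11 and U12 the capitals mark the only run of an A, 4 to 6 T and a G, the form of an Sm site, on which the ring of Sm proteins closes.

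Rnu11: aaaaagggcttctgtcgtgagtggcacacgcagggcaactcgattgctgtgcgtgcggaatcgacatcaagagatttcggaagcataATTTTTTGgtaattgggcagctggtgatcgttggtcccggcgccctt
Rnu12: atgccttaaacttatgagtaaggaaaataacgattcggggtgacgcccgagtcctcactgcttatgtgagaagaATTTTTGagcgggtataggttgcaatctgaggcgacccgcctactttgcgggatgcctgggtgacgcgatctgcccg

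The search for such a run, on the RNA strand alone, found 1 match in each, at bases 88 to 95 of *Rnu11* and 75 to 81 of *Rnu12*. Among GENCODE transcripts of 100 to 160 bases, 73 of 1042 snRNAs (7.01%) and 98 of 2863 others (3.42%) hold such a run. *Rnu11* and *Rnu12* were identical at 51.2% of aligned columns. Of 7SK the first 100 bases are shown (chromosome 9, 78175534 to 78175633, minus strand), and the capitals mark GATC, which as GAUC is a binding sequence of HEXIM1 in human 7SK.

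Rn7sk, bases 1 to 100: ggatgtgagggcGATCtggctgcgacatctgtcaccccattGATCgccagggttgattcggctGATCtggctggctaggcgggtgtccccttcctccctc

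*Rn7sk* holds 3 GATC runs, at bases 13 to 16, 42 to 45 and 64 to 67. Of 4689 GENCODE transcripts of 300 to 360 bases, 429 (9.15%) hold 3 or more.

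*Rnu5g* (ENSMUSG00000095892) lies on chromosome 9 at 65201726 to 65201841, minus strand, in an intron of *Parp16*, which runs the other way. *Rnu11* (ENSMUSG00000077323) lies on chromosome 4 at 132270080 to 132270213, minus strand, and the exon of the antisense RNA *Gm28872* covers all of it. *Rnu12* (ENSMUSG00000065176) lies on chromosome 15 at 83149644 to 83149794, plus strand. *Rn7s1* (ENSMUSG00000099021) and *Rn7s2* (ENSMUSG00000099250) lie on chromosome 12, at 69159295 to 69159594 on the plus strand and 69361182 to 69361481 on the minus strand. Each of these overlaps 2 small annotated miRNAs on its own strand, and those miRNAs and *Gm28872* had 0 counts in all 18 libraries. *Rn7sk* (ENSMUSG00000065037) lies on chromosome 9 at 78175303 to 78175633, minus strand.

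Near-identical copies limit how far a count belongs to its own locus. Every 50-base window of *Rn7s1* and *Rn7s2* also occurs in other genes, as do 82.1% of the windows of *Rnu5g*, 68.1% of *Rn7sk* and 53.9% of *Rnu12*. For *Rnu11* all windows match the overlapping *Gm28872* on the other strand. The counter and its handling of strand and of reads with several matches are not given in the sources used here. *Rn7s1* and *Rn7s2* in particular cannot be told apart by sequence, and their separate counts are those of the deposited table. All values of these rows are uncertain to that extent.

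The library kit removed ribosomal RNA, but protein-coding genes held 91.3 to 94.6% of counts in LY6G polysomal and 71.9 to 89.5% in LY6G total libraries, 66.7 to 93.7% in LY6C polysomal and 37.3 to 93.4% in LY6C total libraries, against 1.82 to 3.71% in BM polysomal and 0.232 to 0.291% in BM total libraries. These shares leave out *Lars2* and the protein-coding genes of the mitochondrial genome, as do the protein-coding counts used below as a scale. Total counts ran between 8559897 and 26225431. Levels are CPM, counts brought to a common total per library, with library sizes scaled by TMM, a method that assumes that most genes do not change. Since the ribosomal RNA of BM falls outside that scale, 1 CPM was 63.1 to 104 counts in LY6G, 18 to 110 in LY6C and 0.472 to 3.51 in BM. Erythroid, B lineage and stromal markers were at most 7.55, 5.36 and 6.64 CPM in sum in sorted libraries, against 507 to 1231, 55.0 to 93.5 and 1978 to 6796 CPM in BM. The erythroid gene *Epb42* was at 0 in every sorted group, and in BM total RNA, and 7 myeloid markers summed to 1337 to 2236 CPM in LY6G and 793 to 2799 in LY6C against 72.3 to 164 CPM in BM. Megakaryocyte and platelet markers did not separate the samples in this way, with 46.6 to 223 CPM in LY6G and 12.0 to 342 in LY6C against 72.0 to 190 CPM in BM. Their part in any difference from BM was not tested, and in such bulk samples fewer cells of a type and less RNA per cell cannot be told apart.

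*Rmrp* and *Rpph1* had 0 counts in every library. Over the 3 libraries of a group, 0 counts allow up to 0.0103 CPM in LY6G polysomal, 0.0133 in LY6G total, 0.0181 in LY6C polysomal and 0.0197 in LY6C total RNA, against 0.371 in BM polysomal and 1.91 in BM total RNA. These limits use 3 counts per group and cover counting error only. The *Rmrp* identifiers ENSMUSG00000088088 (chromosome 4, 43492788 to 43493058, minus strand) and ENSMUSG00000115420 share 271 bases, and exons of the antisense gene *Ccdc107* cover 45.8% of the first. *Rpph1* (ENSMUSG00000092837, chromosome 14, 50807449 to 50807767, minus strand) has 73.0% of its bases in exons of *Ccnb1ip1* on its own strand. How the authors' counting treated such shared bases was not tested. The text on values below thus concerns the other 6 RNAs.

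In sorted cells the 6 counted RNAs were lower in polysomal than in total RNA at each of the numbers 2, 3 and 6, in LY6G and in LY6C alike. The same held with counts taken as a share of all counts of the library. Among all 14181 tested genes, 25.3% were lower at every number in LY6G and 17.9% in LY6C. Nothing is read from that, as the members were listed with this contrast known. The fitted median of the 6 was −2.18 log2 in LY6G and −3.66 in LY6C, beside 0.00 and 0.01 for all genes. The numbers pair the 2 fractions of sorted cells, so each polysomal level is also given as a percentage of the total level of its number.

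*Rnu5g* had 0.630, 0.145 and 0.0667 CPM in LY6G polysomal RNA (numbers 2, 3 and 6) against 1.95, 1.59 and 0.178 CPM in LY6G total RNA. The polysomal level was thus 32.4, 9.13 and 37.4% of the total level at these numbers. In LY6C it had 0.185, 0.0762 and 0.0418 CPM in polysomal and 1.70, 1.11 and 0.790 CPM in total RNA. This U5 RNA was the most even of the 6 in LY6C, with 10.9, 6.87 and 5.29% of the total level, and the 2 fractions did not overlap there. In LY6G they did, since number 6 was low in both. The fitted differences were −2.13 ± 0.85 log2 in LY6G and −3.36 ± 0.96 in LY6C (SE, n = 3 per fraction). These and the fitted differences between fractions below come from the model without a block, so their errors leave the pairing out. With the replicate number as a block the LY6C difference of *Rnu5g* was −3.77 ± 0.64. Only 1 to 61 counts stood behind each polysomal value.

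*Rnu11* had 0.362, 0.106 and 0.178 CPM in LY6G polysomal against 0.957, 1.05 and 0.275 CPM in LY6G total RNA. In LY6C it had 0.175, 0.0254 and 0.125 CPM in polysomal against 0.898, 0.610 and 0.748 CPM in total RNA. The fractions overlapped in LY6G, through numbers 2 and 6, and not in LY6C. Polysomal levels were 37.8, 10.1 and 64.8% of total in LY6G and 19.5, 4.16 and 16.7% in LY6C, where numbers 3 and 6 rest on 1 and 3 polysomal counts. The fitted differences were −1.81 ± 0.60 and −2.66 ± 0.71 log2.

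*Rnu12*, the partner of U11 in the minor spliceosome, had 0.992, 0.241 and 0.222 CPM in LY6G polysomal against 2.44, 3.19 and 1.04 CPM in LY6G total RNA. It had 0.253, 0.355 and 0.292 CPM in LY6C polysomal against 0.798, 2.61 and 2.87 CPM in LY6C total RNA. Its fractions did not overlap in either population on the TMM scale, by a narrow margin in LY6G, and 9.06% of all genes were lower in this way in LY6G and 4.1% in LY6C. As CPM of the whole library, ribosomal RNA included, they overlapped in LY6G, where polysomal RNA of number 2 had 5.25 and total RNA of number 6 had 4.68. The LY6C polysomal libraries were close to each other, and LY6C total RNA of number 2 was the low one. The fitted differences were −2.19 ± 0.70 log2 in LY6G and −2.77 ± 0.76 in LY6C. Per kilobase and over pooled counts, *Rnu12* was 2.02 times *Rnu11* in LY6G polysomal, 2.56 times in LY6G total, 1.90 times in LY6C polysomal and 1.41 times in LY6C total RNA.

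*Rn7s1* had 0.227, 0.0386 and 0.0111 CPM in LY6G polysomal against 0.267, 1.05 and 0.192 CPM in LY6G total RNA. In LY6C its counts were 0, 2 and 1 in polysomal against 2, 76 and 99 in total RNA. The pooled LY6C polysomal level was 1.56% of the total level, from 3 against 177 counts, and the numbers differed widely. With a prior count of 2 their log2 ratios ran from −5.62 to −0.51. *Rn7s2*, with the same 300 bases, had 0.744, 0.0482 and 0.0222 CPM in LY6G polysomal against 0.757, 3.63 and 0.975 CPM in LY6G total RNA. It had 0.0389, 0.330 and 0.543 CPM in LY6C polysomal against 0.109, 8.81 and 15.3 CPM in LY6C total RNA. At number 2 the 7SL fractions of LY6G were nearly equal, at 85.1% for *Rn7s1* and 98.3% for *Rn7s2*. At numbers 3 and 6 the polysomal level of these RNAs was 1.33 to 5.78% of total in LY6G. Those percentages rest on 4 and 1 polysomal counts of *Rn7s1* and 5 and 2 of *Rn7s2*. LY6C total RNA of number 2 held far less 7SL than numbers 3 and 6, so the 7SL fractions of LY6C overlapped, while in LY6G *Rn7s1* overlapped and *Rn7s2* did not, by a narrow margin.

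The 7SK RNA *Rn7sk* carried most of the reads, with 5971 to 74680 counts in LY6G polysomal and 40622 to 142334 in LY6G total libraries, and 3169 to 5261 in LY6C polysomal and 21165 to 55078 in LY6C total libraries. Counting error is therefore small beside the spread between numbers. It had 772, 57.6 and 74.1 CPM in LY6G polysomal against 1239, 2256 and 558 CPM in LY6G total RNA. It had 30.9, 134 and 188 CPM in LY6C polysomal against 192, 3053 and 2198 CPM in LY6C total RNA. Fractions overlapped in LY6G, where polysomal RNA of number 2 lay above total RNA of number 6, and by a narrow margin did not overlap in LY6C. Polysomal levels were 62.3, 2.55 and 13.3% of total in LY6G and 16.1, 4.37 and 8.57% in LY6C. The fitted differences were −2.17 ± 1.05 log2 in LY6G and −3.95 ± 1.14 in LY6C.

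**Figure D1:**
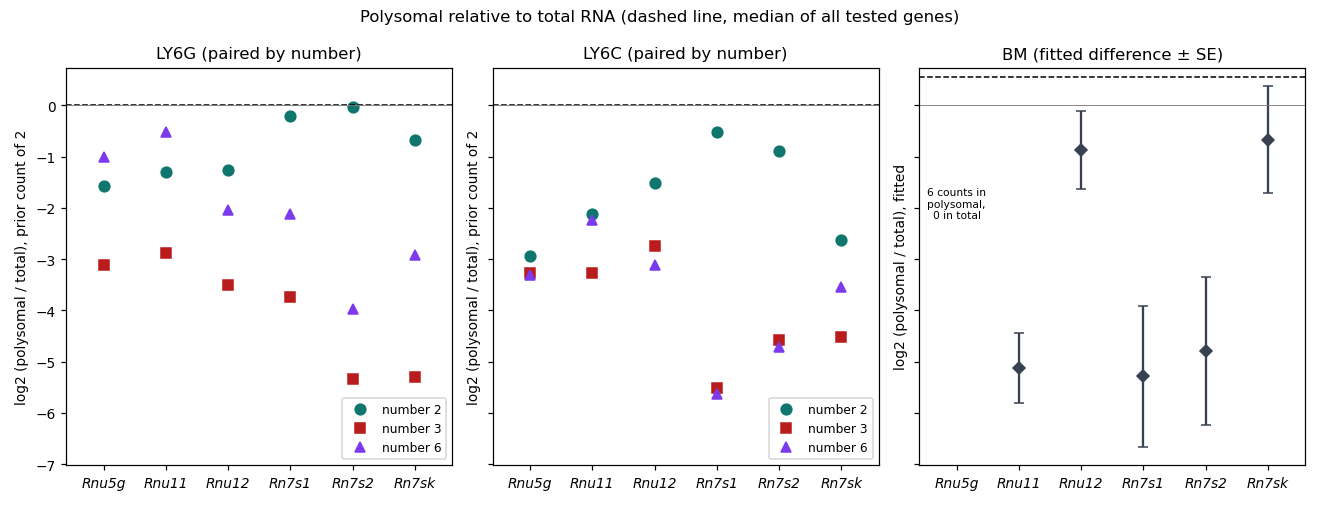
Log2 ratio of polysomal to total RNA (y axis) for the 6 counted RNAs (x axis) in LY6G, LY6C and BM, where *Rnu5g* is not drawn. Symbols in the sorted cells are ratios by replicate number, with a prior count of 2. Diamonds with bars in BM are fitted differences ± SE, and the dashed line is the fitted median of all tested genes. All sorted-cell symbols lie below 0, and *Rn7s2* of LY6G number 2, at −0.02, is the closest to it; the BM values are on the TMM scale, and those of *Rnu12* and *Rn7sk* turn positive when all counts set the scale.

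A single library in each population set much of this spread. LY6G polysomal RNA of number 2 was the highest of its 3 libraries for all 6 RNAs, and without it the LY6G differences moved to −3.50 for *Rnu5g*, −5.52 for *Rn7s2* and −4.36 for *Rn7sk*. LY6C total RNA of number 2 was the lowest of its group for *Rnu12*, *Rn7s1*, *Rn7s2* and *Rn7sk*, and the highest for *Rnu5g* and *Rnu11*. Protein-coding genes held 93.4% of the counts of that library, against 37.3 and 54.5% at numbers 3 and 6. A link between the 2 was not tested. Across the 12 sorted libraries the log2 levels of *Rn7s1* and *Rn7s2* had a Pearson r of 0.96, *Rnu12* and *Rn7sk* 0.96 and *Rnu5g* and *Rnu11* 0.92. The lowest of the 15 pairs was 0.51, for *Rnu5g* and *Rn7s2*. Over all 18 libraries, BM included, the 15 pairs ran from −0.34, for *Rnu5g* and *Rnu11*, to 0.99, for *Rn7s1* and *Rn7s2*. These are descriptions over libraries that differ in fraction, population and depth.

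In BM the RNAs did not move alike between fractions. *Rnu11* had 4.56, 2.89 and 4.22 CPM in BM polysomal (numbers 1, 2 and 3) against 33.9, 228 and 155 CPM in BM total RNA. *Rn7s1* had 9.70, 8.09 and 14.1 CPM in BM polysomal against 74.1, 403 and 777 CPM in BM total RNA. *Rn7s2* had 18.5, 17.3 and 22.8 CPM in BM polysomal against 218, 848 and 556 CPM in BM total RNA. For these 3 the fractions did not overlap on the TMM scale, with fitted differences of −5.13 ± 0.68, −5.29 ± 1.38 and −4.79 ± 1.45 log2. Among all genes, 1.84% were lower in BM polysomal RNA without overlap. The direction held with every scaling run, with −2.04, −2.10 and −1.70 log2 when all counts set the scale. As CPM of the whole library, ribosomal RNA included, the fractions of all 3 overlapped, with 0.331 to 0.991 in BM polysomal against 0.809 to 5.30 in BM total RNA for *Rnu11*.

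*Rnu12* had 3.71, 8.67 and 26.4 CPM in BM polysomal against 8.47, 31.1 and 31.0 CPM in BM total RNA, and the fractions overlapped. *Rn7sk* had 54.8, 34.1 and 111 CPM in BM polysomal against 157, 65.5 and 97.1 CPM in BM total RNA, also with overlap. Their differences of −0.88 ± 0.76 and −0.67 ± 1.05 log2 lay near their errors and became 2.32 and 2.51 with all counts as the scale. Relative to the median of all genes, *Rnu12* lay at −1.43 to −0.95 and *Rn7sk* at −1.24 to −0.76 over the 4 scalings. A change of scale shifts most genes by a similar amount. Values relative to the median, here and below, are thus not separate checks of each other. Without BM polysomal number 3, the highest library of both, *Rnu12* moved to −2.05. *Rnu5g* had 3, 3 and 0 counts in BM polysomal and 0 in each BM total library, so no difference was detectable at this depth. BM numbers showed no pairing of the fractions, though at this depth a pairing could be missed.

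Ratios between 2 of these RNAs within a library do not depend on the scaling. Per kilobase, *Rnu12* over *Rnu11* was 0.222, 0.121 and 0.177 in the BM total libraries, and 0.147 when pooled, against 2.77 pooled in BM polysomal RNA. In BM total RNA U11 thus exceeded U12, and in all 5 other groups the pooled order was the reverse. Single libraries went the other way, with 0.789 in LY6C total RNA of number 2 and 0.721 in BM polysomal RNA of number 1, beside 2.66 and 5.55 in BM polysomal RNA of numbers 2 and 3. *Rn7s1* over *Rn7s2*, from identical sequences, was 0.34 and 0.28 pooled in LY6G polysomal and total RNA, 0.10 and 0.33 in LY6C polysomal and total RNA, and 0.55 and 0.74 in BM polysomal and total RNA. The BM total libraries had 0.340, 0.475 and 1.40, so number 3 alone had more *Rn7s1* than *Rn7s2* counts.

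**Figure D2:**
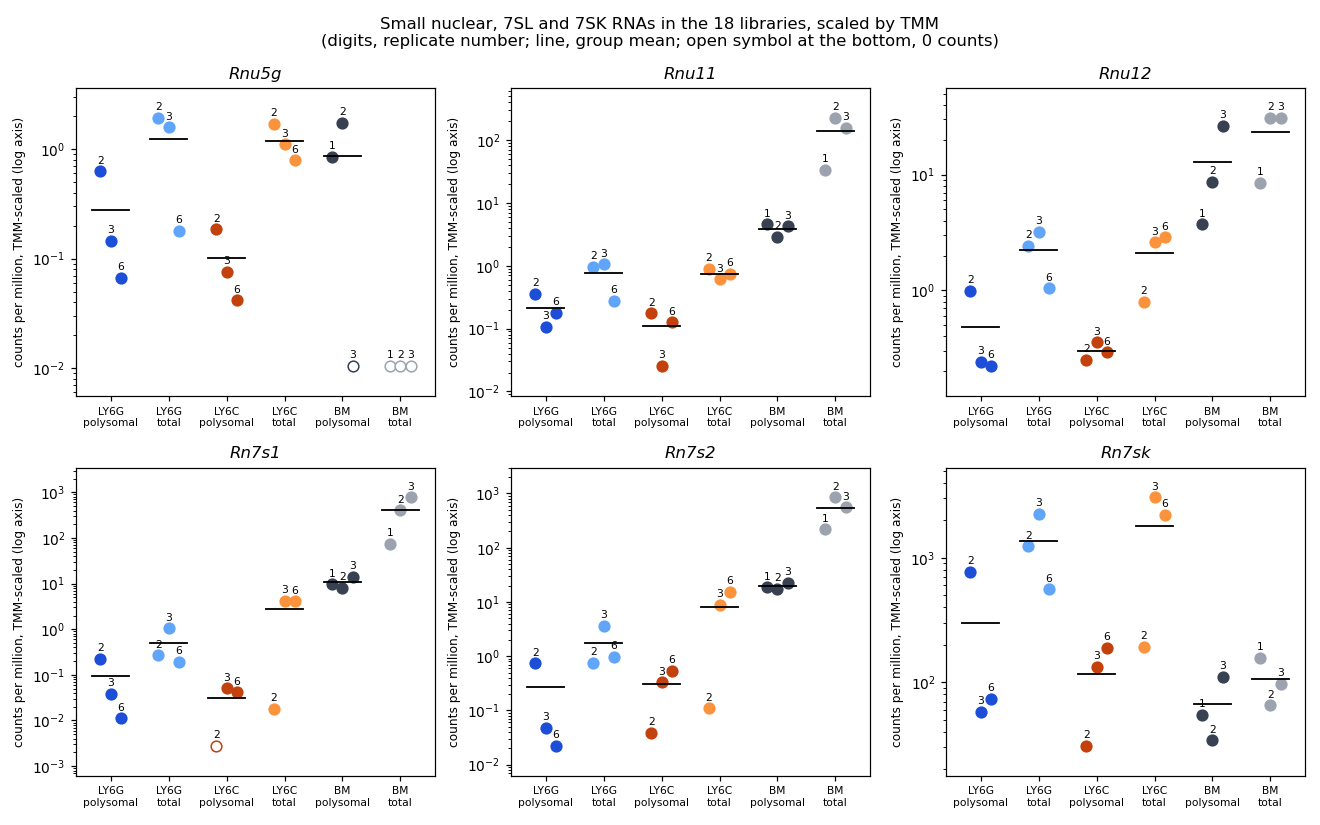
CPM on the TMM scale (log y axis) of the 6 counted RNAs in the 18 libraries, by group on the x axis; digits are replicate numbers, lines group means and open symbols libraries with 0 counts. *Rn7sk* reached 3053 CPM in LY6C total RNA, while *Rnu11*, *Rn7s1* and *Rn7s2* were highest in BM total RNA on this scale.

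Per kilobase on the TMM scale, *Rn7sk* ranked first of the 6 in every group other than BM total RNA. Its mean was 910 ± 1231 CPM per kilobase in LY6G polysomal, 4082 ± 2583 in LY6G total, 355 ± 242 in LY6C polysomal, 5482 ± 4438 in LY6C total and 201 ± 120 in BM polysomal RNA (SD, n = 3 each). In BM total RNA it was 322 ± 140, behind *Rn7s2* (1802 ± 1051), *Rn7s1* (1393 ± 1172) and *Rnu11* (1036 ± 730). The order of these 3 was within their spread. In LY6G total RNA *Rnu12* (14.7 ± 7.20), *Rnu5g* (10.7 ± 8.06), *Rn7s2* (5.96 ± 5.33), *Rnu11* (5.67 ± 3.15) and *Rn7s1* (1.67 ± 1.58) followed *Rn7sk*, and no neighbours among these 5 differed beyond their spread. In LY6C total RNA *Rn7s2* (26.9 ± 25.3) came next, then *Rnu12* (13.8 ± 7.46), *Rnu5g* (10.4 ± 4.00), *Rn7s1* (9.27 ± 7.98) and *Rnu11* (5.61 ± 1.07), again within their spread. Ribosomal RNA depletion, short length and copies act on each RNA in ways that were not tested, so these ranks describe counts, not molecules.

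The comparison of sorted cells with BM asks how the 2 MDSC populations stand against the marrow. The RNAs were chosen by another contrast, but from these same libraries and with earlier results known. The tests against BM are thus not independent of that choice. On the TMM scale *Rnu11*, *Rnu12*, *Rn7s1* and *Rn7s2* were lower and *Rn7sk* was higher in LY6G and in LY6C total RNA than in BM total RNA. With all counts as the scale, ribosomal RNA included, *Rnu12* was instead higher in both populations, *Rnu11* in LY6G and *Rn7s2* in LY6C turned positive, and *Rn7sk* stayed higher. The TMM scale put the median of all genes 1.63 log2 higher in LY6G and 1.64 in LY6C, and all counts put it 8.11 and 7.66 higher. Relative to that median, the 4 RNAs were lower under all 4 scalings and *Rn7sk* was higher under all 4. That agreement carries little weight, since a change of scale shifts most genes by a similar amount and the median takes it off.

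In edgeR's quasi-likelihood test with Benjamini-Hochberg adjustment over 14181 genes, 5 of the 6 RNAs passed an adjusted p of 0.05 in LY6G and 5 in LY6C, 4 lower and 1 higher. Of all genes, 9.39% were called lower and 21.5% higher in LY6G, and 7.4% lower and 20.5% higher in LY6C. *Rnu11* averaged 0.759 ± 0.422 CPM in LY6G and 0.752 ± 0.144 in LY6C against 139 ± 97.8 CPM in BM total RNA (SD, n = 3 each). Its differences of −7.52 ± 0.72 and −7.50 ± 0.72 log2 (SE) had adjusted p of 4.42e-07 and 5.70e-07 in edgeR. The libraries did not overlap on this scale, and for all genes 8.45% in LY6G and 6.14% in LY6C lay below BM without overlap. As CPM of the whole library, ribosomal RNA included, U11 had 5.05, 4.36 and 1.23 in LY6G and 4.68, 1.27 and 2.10 in LY6C against 0.809, 5.30 and 2.99 in BM, and there they did. With all counts as the scale the differences were 0.22 and −0.16 (edgeR adjusted p = 0.775 and 0.842).

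*Rnu12* averaged 2.22 ± 1.09 CPM in LY6G and 2.09 ± 1.13 in LY6C against 23.5 ± 13 CPM in BM total RNA, from 38 counts in BM. The differences of −3.42 ± 0.78 and −3.54 ± 0.79 log2 passed edgeR's test (adjusted p = 0.00249 and 0.00245). As CPM of the whole library, ribosomal RNA included, it had 12.9, 13.3 and 4.68 in LY6G and 4.16, 5.41 and 8.06 in LY6C against 0.202, 0.724 and 0.599 in BM. On that scale U12 was the higher in sorted cells, by 4.30 and 3.49 log2 (edgeR adjusted p = 2.51e-05 and 0.000247). Relative to the median gene it lay at −5.05 to −3.81 in LY6G and −5.20 to −4.17 in LY6C over the 4 scalings.

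*Rn7s1* averaged 0.502 ± 0.473 CPM in LY6G and 2.78 ± 2.39 in LY6C against 418 ± 352 CPM in BM total RNA. *Rn7s2* averaged 1.79 ± 1.60 and 8.06 ± 7.60 CPM against 541 ± 315 CPM in BM. The edgeR differences were −9.71 ± 1.64 and −7.28 ± 1.49 log2 for *Rn7s1* (adjusted p = 0.00046 and 0.00215) and −8.25 ± 1.67 and −6.08 ± 1.52 for *Rn7s2* (adjusted p = 0.00182 and 0.00819). With all counts as the scale no 7SL difference passed the test, with −1.98 and −0.38 for *Rn7s1* and −0.61 and 0.78 for *Rn7s2*. In a fit of LY6C and BM total libraries alone, edgeR's adjusted p was 0.102 for *Rn7s1* and 0.0964 for *Rn7s2*. Relative to the median gene the 7SL RNAs lay at −11.35 to −8.71 in LY6G and −8.95 to −6.88 in LY6C over the 4 scalings.

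*Rn7sk* averaged 1351 ± 855 CPM in LY6G and 1814 ± 1469 in LY6C against 106 ± 46.3 CPM in BM total RNA, and every sorted library lay above the 3 of BM, as it did for 54.2% of all genes in LY6G and 48.5% in LY6C. Its differences of 3.67 ± 1.14 and 4.10 ± 1.16 log2 had edgeR adjusted p of 0.0233 and 0.0159. Both lost the call with the replicate number as a block (edgeR adjusted p = 0.079 in LY6G and 0.0729 in LY6C). That block joined sorted and BM libraries of the same number, between which no pairing was found (r of −0.0087 to 0.0034 in total RNA). Without number 3 of LY6G or LY6C total RNA, or without number 2 or 3 of BM total RNA, edgeR's adjusted p was 0.0546 to 0.0823, and with protein-coding counts as the scale it was 0.0551 in LY6G. As CPM of the whole library, ribosomal RNA included, 7SK stood at 6533, 9396 and 2500 in LY6G and 1001, 6342 and 6179 in LY6C against 3.74, 1.53 and 1.88 in BM. *Rnu5g* had 175, 100 and 13 counts in LY6G and 188, 20 and 19 in LY6C total RNA and 0 in BM total RNA, whose limit of 1.91 CPM lies above the sorted means of 1.24 and 1.2 CPM. On the TMM scale a U5 difference was not detectable at this depth (edgeR adjusted p = 0.336 and 0.358), and with all counts as the scale *Rnu5g* was called higher in both populations (edgeR adjusted p = 2.12e-06 in LY6G and 3.98e-06 in LY6C).

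**Figure D3:**
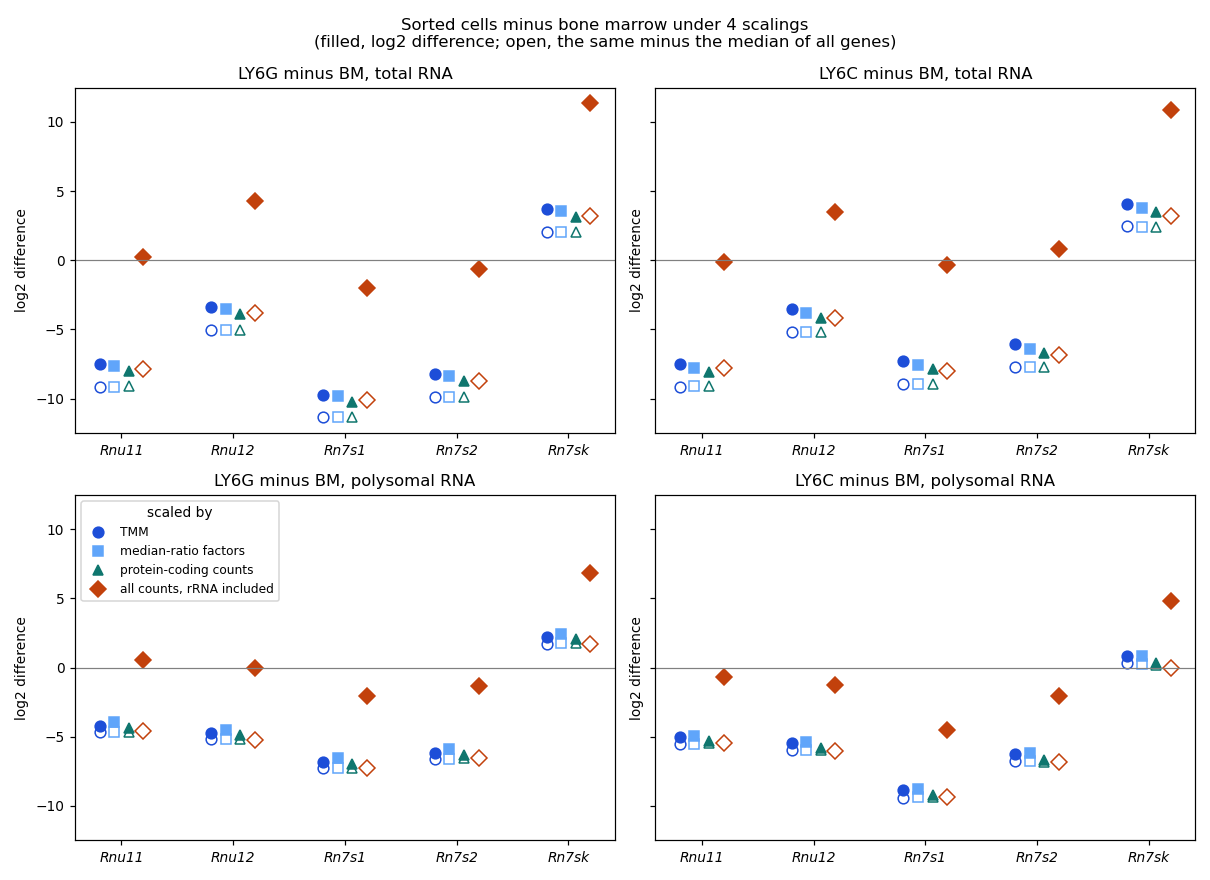
Log2 differences of LY6G and LY6C from BM (y axis) for 5 RNAs (x axis) in total and polysomal RNA under 4 scalings; filled symbols are the difference and open symbols the same after the median of all genes is taken off. The open symbols of *Rnu11*, *Rnu12*, *Rn7s1* and *Rn7s2* lie below 0 in every panel, while the filled diamonds, scaled to all counts, lie at or above 0 for *Rnu11* and *Rnu12* in LY6G total RNA.

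In polysomal RNA the same 4 RNAs were lower in LY6G and in LY6C than in BM on the TMM scale, and *Rn7sk* and *Rnu5g* did not pass the test. Of all genes, 15.3% were called lower in LY6G and 11.2% in LY6C. With all counts as the scale *Rnu11* in LY6G turned positive at 0.56 log2 and *Rnu12* in LY6G came to −0.06, neither past the test. The other 6 differences of these 4 RNAs kept their sign, but *Rn7s1* in LY6C alone kept its call (−4.55 log2, edgeR adjusted p = 0.00638). The edgeR test was not passed by *Rnu11* and *Rnu12* in LY6C, at −0.65 and −1.24 log2 (adjusted p = 0.462 and 0.129), nor by *Rn7s1* in LY6G, at −2.07 (adjusted p = 0.0885). *Rnu11* averaged 0.215 ± 0.132 CPM in LY6G and 0.109 ± 0.0763 in LY6C against 3.89 ± 0.883 CPM in BM (edgeR adjusted p = 0.000151 and 8.19e-05). *Rnu12* averaged 0.485 ± 0.439 and 0.300 ± 0.0516 CPM against 12.9 ± 11.9 CPM in BM (edgeR adjusted p = 0.000121 and 7.18e-05). Their differences were −4.20 and −4.73 log2 in LY6G and −5.02 and −5.44 in LY6C.

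*Rn7s1* averaged 0.0923 ± 0.118 CPM in LY6G polysomal against 10.6 ± 3.08 CPM in BM polysomal RNA, a difference of −6.81 ± 1.54 log2 (edgeR adjusted p = 0.00315). In LY6C polysomal RNA its 3 counts stood at 0.166% of the BM level (exact 95% interval 0.0336 to 0.501%, counting error only). *Rn7s2* averaged 0.271 ± 0.409 CPM in LY6G and 0.304 ± 0.253 in LY6C against 19.6 ± 2.89 CPM in BM. Its differences were −6.16 ± 1.56 and −6.23 ± 1.63 log2 (edgeR adjusted p = 0.00673 and 0.00957), and −1.36 and −2.05, not past the test, with all counts as the scale. No sorted polysomal library reached the BM range for either 7SL RNA on the TMM scale, where 19.5% of all genes lay below BM without overlap in LY6G and 14% in LY6C.

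*Rn7sk* averaged 301 ± 408 CPM in LY6G and 118 ± 80.0 in LY6C polysomal against 66.6 ± 39.8 CPM in BM polysomal RNA, with overlap in both. The differences of 2.17 ± 1.06 and 0.81 ± 1.02 log2 did not pass edgeR's test (adjusted p = 0.121 and 0.566). With no filter on low counts the LY6G difference did, at 2.35 ± 0.43 log2 (edgeR adjusted p = 7.18e-07). Its size thus changed little there, and its error became smaller. Without LY6G number 2 the LY6G difference was 0.00. With all counts as the scale 7SK was 6.86 and 4.78 log2 higher and passed the test. *Rnu5g* averaged 0.281 ± 0.305 and 0.101 ± 0.0748 CPM against 0.863 ± 0.867 CPM from 6 counts in BM (edgeR adjusted p = 0.353 and 0.127). With no filter the LY6C difference passed (edgeR adjusted p = 0.0407). On all counts *Rnu5g* was instead higher in LY6G, at 3.42 log2 and past the test (edgeR adjusted p = 0.00566). In LY6C it stood at 1.82 log2 there, not past it (edgeR adjusted p = 0.133). Relative to the median gene, *Rn7sk* lay at 1.67 to 1.76 in LY6G and −0.01 to 0.29 in LY6C over the 4 scalings.

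**Figure D4:**
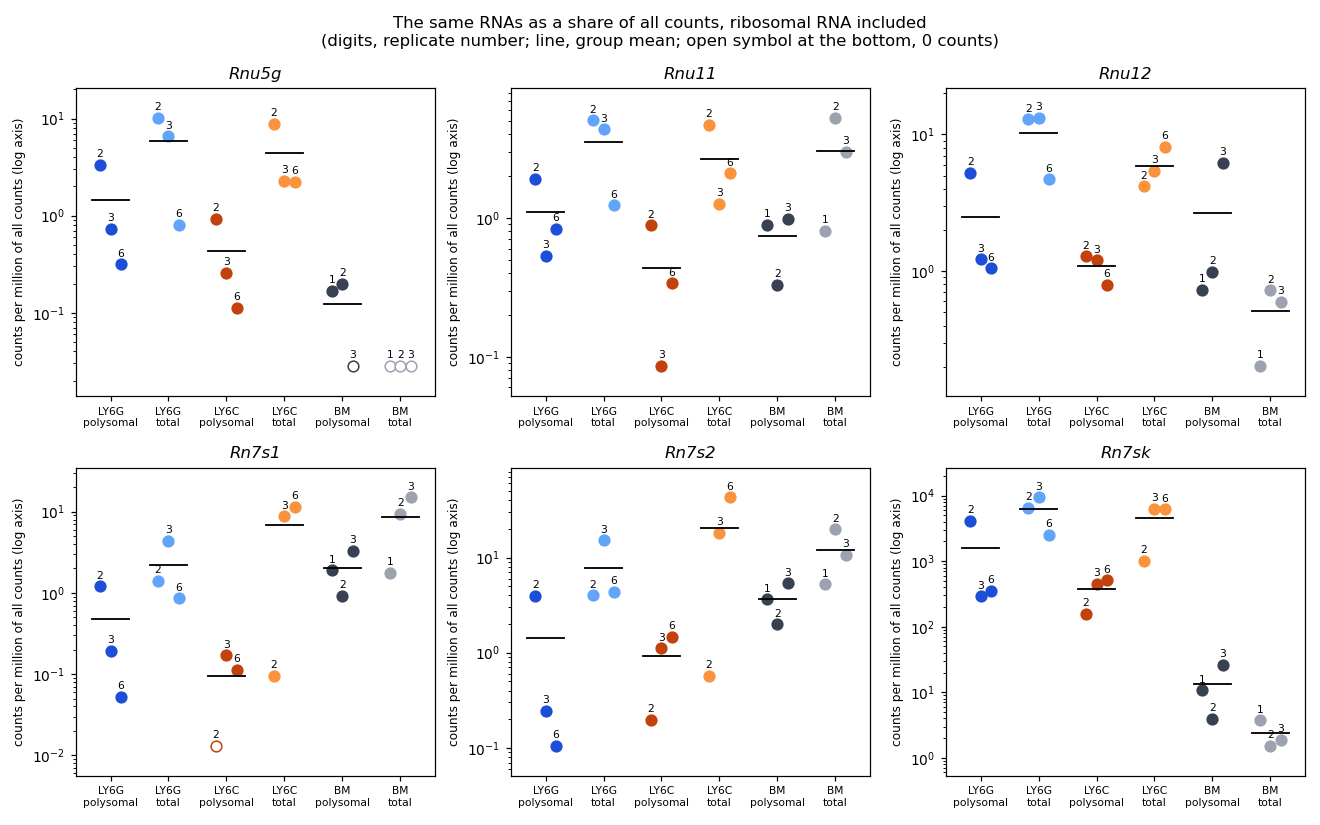
CPM of all counts in the library, ribosomal RNA included (log y axis), for the 6 counted RNAs by group on the x axis; digits are replicate numbers, lines group means and open symbols libraries with 0 counts. *Rn7sk* lies at 1001 or more in every LY6G and LY6C total library against at most 3.74 in BM total RNA, while *Rnu11* overlaps between sorted cells and BM in total RNA.

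The comparison of LY6G with LY6C asks what separates the 2 MDSC populations. None of the 6 RNAs was called in total or in polysomal RNA, and edgeR called 0% of all genes in either fraction. At an unadjusted p under 0.05 it found 565 genes in total and 833 in polysomal RNA, and DESeq2 also called 0 after adjustment. *Rnu5g*, *Rnu11* and *Rnu12* in total RNA differed by 0.02 ± 0.82, −0.02 ± 0.59 and 0.12 ± 0.67 log2 (SE). *Rn7s1* and *Rn7s2* differed by −2.44 ± 1.25 and −2.16 ± 1.29, and *Rn7sk* by −0.43 ± 1.01, which was 0.45 with all counts as the scale. By number the 7SK level of LY6G total RNA was 646, 73.9 and 25.4% of that of LY6C, so number 2 went one way and numbers 3 and 6 the other. With no filter on low counts edgeR called *Rn7s1* (adjusted p = 0.000561) and *Rn7s2* (0.00207) lower in LY6G total RNA. The errors were 0.45 and 0.43 log2 there, and the sizes, −2.30 and −2.03, were little changed. At number 2, LY6G stood at 1473% and 696% of LY6C. With the replicate number as a block the edgeR adjusted p was 0.554 and 0.65. In polysomal RNA the differences lay between 0.07 and 2.07 log2, each within 1.5 times its standard error. For 4 of the 6 RNAs the sign rested on 1 library, as without LY6G polysomal number 2 the differences of *Rnu5g*, *Rnu12*, *Rn7s2* and *Rn7sk* were −0.11, −0.35, −2.77 and −0.83. By number the 7SK level of LY6G polysomal RNA was 2501, 43.1 and 39.3% of that of LY6C, and *Rnu12*, *Rn7s1* and *Rn7s2* were likewise higher in LY6G at number 2 and lower at numbers 3 and 6. The largest fitted difference, of *Rn7s1*, rests on 27 counts in LY6G against 3 in LY6C, a pooled level of 515% (exact 95% interval 158 to 2650%, counting error only).

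The protein partners of these RNAs were read in the same fits. Calls below are on the TMM scale, and with all counts as the scale every tested protein gene of these 7 lists was called higher in LY6G and LY6C total RNA than in BM. In polysomal RNA all counts gave the same for all but 1 gene of the SRP list in LY6G, and for all but 1 of the SRP list and 1 of the RNase P and MRP list in LY6C, with none lower. Of 13 tested genes for SRP proteins, the SRP receptor and the Sec61 channel, 6 were called higher and 2 lower in LY6G total RNA against BM. In LY6C total RNA 6 were higher and 1 lower. Of all genes, 21.5% were called higher and 9.39% lower in LY6G total RNA, and 20.5% and 7.4% in LY6C total RNA. In polysomal RNA 2 of the 13 were higher and 1 lower in LY6G, and 3 higher and 0 lower in LY6C. There 22.1% and 20.2% of all genes were called higher, and 15.3% and 11.2% lower. *Sec61a1*, the pore subunit of the channel that SRP delivers to, averaged 53.6 ± 6.21 CPM in LY6G and 63.9 ± 7.56 in LY6C against 19.9 ± 6.41 CPM in BM polysomal RNA (edgeR adjusted p = 0.00269 and 0.000898). Its differences of 1.42 and 1.67 log2 kept their sign under all 4 scalings, also relative to the median gene. The list median was 1.00 log2 in LY6G and 0.82 in LY6C polysomal RNA, beside 0.45 and 0.52 for all genes.

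Of 7 tested genes for 7SK particle proteins and P-TEFb, 2 were called higher and 2 lower in LY6G total RNA against BM. In LY6C total RNA 1 was higher and 2 lower. Of all genes, 21.5% were called higher and 9.39% lower in LY6G, and 20.5% and 7.4% in LY6C. *Mepce*, which caps 7SK, averaged 10.1 ± 2.47 CPM in LY6G and 12.9 ± 3.80 in LY6C against 41.2 ± 16.7 CPM in BM total RNA (−2.02 and −1.66 log2, edgeR adjusted p = 0.000281 and 0.00166). *Hexim1*, which inhibits P-TEFb when bound to 7SK, averaged 31.8 ± 12.3 and 44.9 ± 12.6 CPM against 105 ± 7.78 CPM in BM (−1.73 and −1.23 log2, edgeR adjusted p = 0.000371 and 0.00624). Both turned positive with all counts as the scale, and relative to the median gene both stayed below 0 under all 4 scalings. *Ccnt2*, a cyclin of P-TEFb, averaged 22.1 ± 7.63 and 15.8 ± 3.56 CPM against 5.37 ± 4.00 CPM in BM, positive under all 4 scalings, while relative to the median gene it ran between −0.15 and 1.02 in LY6C. For *Ccnt2* the LY6C call was lost with median-ratio factors and with protein-coding counts as the scale (edgeR adjusted p = 0.0897 and 0.270).

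Of 12 tested minor spliceosome genes, 4 were called lower and 0 higher in LY6G polysomal and the same numbers in LY6C polysomal RNA, where 15.3% and 11.2% of all genes were called lower. All 12 were called higher in both with all counts as the scale. On the TMM scale the list median was −1.28 and −0.95 log2. *Snrnp48*, a protein of the U11/U12 particle, averaged 3.18 ± 0.694 CPM in LY6G and 3.02 ± 0.884 in LY6C against 16.3 ± 6.47 CPM in BM polysomal RNA. *Pdcd7*, another protein of that particle, averaged 5.24 ± 0.738 and 10.1 ± 4.49 CPM against 22.4 ± 0.911 CPM in BM. *Zrsr2*, which recognises the 3′ splice site of these introns, averaged 5.42 ± 0.693 and 9.59 ± 4.34 CPM against 21.6 ± 3.42 CPM in BM. All 3 passed edgeR's test in both populations (adjusted p between 0.000154 and 0.0327), were positive with all counts as the scale and lay below the median gene under all 4 scalings. In total RNA 1 gene of this list was called higher and 1 lower in LY6G, and 1 higher and 0 lower in LY6C. The shares of all genes there were 21.5% higher and 9.39% lower in LY6G, and 20.5% and 7.4% in LY6C.

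For the counts of the next lists against BM, 22.1% of all genes were called higher and 15.3% lower in LY6G polysomal, 20.2% and 11.2% in LY6C polysomal, 21.5% and 9.39% in LY6G total and 20.5% and 7.4% in LY6C total RNA. Of 8 tested U5 protein genes, none was called in polysomal RNA against BM, and 1 was called higher in LY6G total and 2 in LY6C total RNA. Of 7 tested Sm genes, which build the ring on U5, U11 and U12, 1 was higher and 2 lower in LY6G polysomal and 2 higher and 1 lower in LY6C polysomal RNA. In total RNA 2 Sm genes were higher and 1 lower in LY6G, and 2 higher and 0 lower in LY6C. Of 11 genes for RNase P and MRP proteins, 6 were higher and 1 lower in each polysomal comparison with BM, and 2 higher in each total one, while their RNAs *Rmrp* and *Rpph1* had no counts. Of 11 genes for the factors that transcribe snRNA genes and RNA polymerase III genes, 1 was lower in each polysomal comparison, *Brf1*, and 1 was higher in LY6G total RNA. In LY6G against LY6C and in polysomal against total RNA of sorted cells, edgeR called no gene of these lists, as for 0% of all genes. For polysomal against total RNA, 254 genes in LY6G and 433 in LY6C had an unadjusted p under 0.05, and DESeq2 called 4 and 6.

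Other short noncoding RNAs gave values like those of the 6. Of 17 listed, 10 had counts and 5 passed the filter, and all 5 were lower in polysomal than in total RNA of LY6G and of LY6C, with medians of −2.16 and −3.02 log2. Over all 18 libraries, the genes most like the mean profile of the 6 by Pearson r, among 5620 candidates, were the telomerase RNA *Terc* (0.97), *Rn7s6* (0.94), the mitochondrial ribosomal RNAs *mt-Rnr1* and *mt-Rnr2* (both 0.90), *Rhno1* (0.87) and *mt-Nd5* (0.86). Depth and the protein-coding share of counts differ between groups, and within LY6C as well, so this r describes only a likeness over these libraries. The 6 RNAs themselves did not all vary alike over these libraries, with r of −0.34 to 0.99 between pairs. *Terc* averaged 0.473 CPM in LY6G polysomal against 2.19 in LY6G total, 0.366 in LY6C polysomal against 4.12 in LY6C total and 3.35 in BM polysomal against 18.2 CPM in BM total RNA. Of 5 tested nuclear long noncoding RNAs, 2 were called lower and 0 higher against BM in each polysomal comparison, among them *Malat1*, and 2 higher and 1 lower in each total one, beside the same shares of all genes. All 5 were called higher in each of these 4 comparisons with all counts as the scale.

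The lower polysomal level in sorted cells was shared in direction with other noncoding classes of GENCODE, the 6 RNAs left out. In LY6G 29 of 38 snRNA genes, 16 of 21 miscellaneous RNAs, 54 of 57 small nucleolar RNAs and 273 of 325 long intergenic RNAs were negative, with medians of −1.34, −0.72, −1.01 and −0.59 log2. In LY6C the counts were 28, 15, 47 and 252 of the same totals, with medians of −1.19, −0.83, −1.06 and −0.56 log2. Protein-coding genes had medians of 0.03 in LY6G and 0.04 in LY6C, with 5438 and 5319 of 11795 negative. The medians of the 6 RNAs, −2.18 and −3.66, lay below each of these classes, as a description, since they were listed on this contrast.

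**Figure D5:**
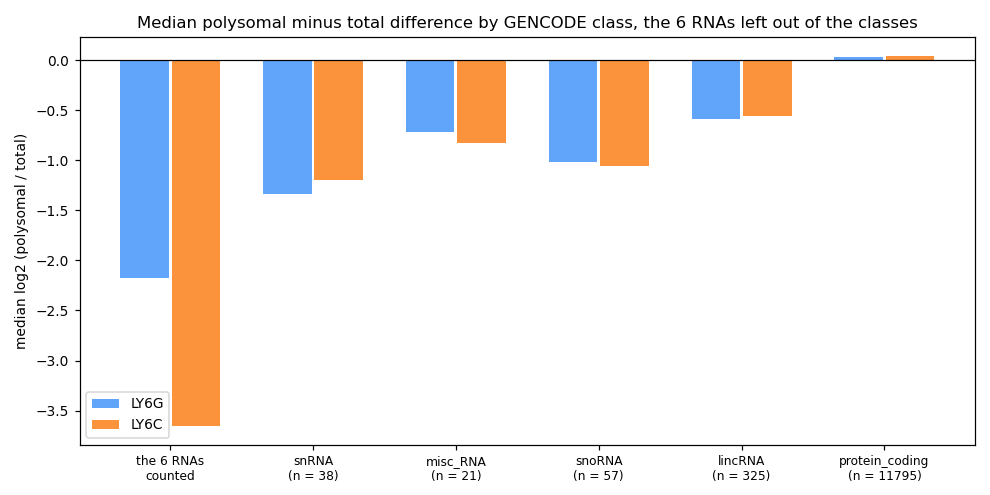
Median log2 difference of polysomal from total RNA (y axis) in LY6G and LY6C for the 6 counted RNAs and for 5 GENCODE classes without them (x axis, with the number of tested genes). The 6 RNAs have the lowest bars, −2.18 in LY6G and −3.66 in LY6C, and protein-coding genes lie at 0.03 and 0.04.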

How the data were processed

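RNA sequencing measured total and polysomal RNA in 18 libraries. The deposited table holds raw counts of reads per Ensembl gene, made by the authors from stranded total RNA libraries depleted of ribosomal RNA, per the labels' protocols. FastQC, STAR 2.5.2a, DESeq, DESeq2 and the build GRCm38 stand in the submitters' processing notes. The counter, its annotation and strand setting are not given in the sources used here. Libraries were grouped by their titles.

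GENCODE M21 named 54809 of 54838 rows, and the named rows were used for classes, coordinates and transcript sequences. The members and all gene lists were chosen with earlier results of these data known. All 8 members are named whatever their values, and up to 4 genes with the lowest p from each list. Markers of other cell types were read as summed CPM.

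Counts were fitted with edgeR 4.0.16 in R 4.3.3, in 1 model of 6 group means without a block. The filter was filterByExpr with a minimum count of 10, the scaling TMM, the prior count of log2 CPM 2 and the common dispersion 0.163. Robust quasi-likelihood tests were adjusted by Benjamini-Hochberg over 14181 genes within each comparison and called under 0.05. The test was checked on simulated data. Tables and figures used Python 3.11.15, pandas 2.3.3 and matplotlib 3.10.9. Alternatives were DESeq2 1.42.0, median-ratio factors, protein-coding counts as library size, dropping the filter and asking for 50 counts in at least 3 libraries. Further ones were fitting the compared libraries alone, the replicate number as a block and omitting each library in turn. Scaling to all counts was added after seeing the data.

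The numbers come from the sample titles. Deviations from group means of same-numbered libraries had r of 0.56, 0.73 and 0.74 between fractions of LY6G and 0.70, 0.68 and 0.60 in LY6C, all over 0.1, so the numbers pair the sorted cells. Between LY6G and LY6C same-numbered libraries had r of 0.42, 0.45 and 0.59 in total and 0.27, 0.38 and 0.47 in polysomal RNA. Between fractions of BM they had r of 0.03, 0.01 and 0.005, so no pairing was seen in BM. With 1 CPM at 0.472 to 3.51 counts there, counting error could hide a pairing, and the check cannot decide it. Nothing says that the sorted replicates came from separate animals, so p-values measure the spread between these samples, which may be technical. BM came from 3 mice, per the labels. Intervals and floors, at 3 counts for a group at 0 and 95% confidence, cover counting error only.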

Additional observations from a re-analysis of the deposited data

How the results depend on the processing

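Depth limits the comparisons with BM, where 1 CPM was as little as 0.472 counts. It also limits *Rn7s1*, *Rn7s2*, *Rnu11* and *Rnu5g* in sorted polysomal RNA, where single libraries had 0 to 3 counts. Scaling matters most against BM. Scaled to all counts, edgeR called 13996 genes in LY6G and 13969 in LY6C total RNA and 13583 and 13406 in polysomal RNA against BM (4374, 3963, 5313 and 4453 on the TMM scale), with 3, 3, 2 and 2 of the 6 RNAs called (5, 5, 4 and 4). Against BM, the RNAs that changed sign were *Rnu11* (0.22) and *Rnu12* (4.30) in LY6G total, *Rnu12* (3.49) and *Rn7s2* (0.78) in LY6C total, *Rnu5g* (3.42) and *Rnu11* (0.56) in LY6G polysomal and *Rnu5g* (1.82) in LY6C polysomal RNA, all in log2. With TMM 73.5% of the calls in LY6C total RNA were higher, and 49.7% with protein-coding counts as the scale. In the compared libraries alone, LY6C total RNA against BM gave 1959 genes and 3 of the 6 RNAs.

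Without a filter LY6G against LY6C gave 76 genes and 2 of the RNAs in total RNA and 88 genes in polysomal RNA. Polysomal against total RNA, 0 genes in LY6G and LY6C, gave 4 and 6 with DESeq2 and 29 and 56 with no filter. In BM the same comparison, 481 genes, gave 200 with median-ratio factors, 186 with protein-coding counts, 9842 with all counts, 145 alone and 767 with the replicate block. It gave 125 to 499 with 1 library left out, the lowest without polysomal number 1 (238 without total number 2 and 257 without polysomal number 3). Leaving out 1 library gave 3380 to 3956 genes in LY6G and 2970 to 3722 in LY6C total RNA and 4394 to 4730 and 3462 to 4275 in polysomal RNA against BM, with 4 or 5 RNAs called in total and 4 in polysomal RNA. The replicate block gave 4617, 4294, 5532 and 4878 genes there and 0 in the sorted comparisons, and of the 6 RNAs it ended the calls of *Rn7sk* in total RNA and no other. Against BM it joined sorted and BM libraries of the same number, although no pairing between them was found.

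Of the other values of single RNAs, 698 kept their call or lack of one or, with no test, moved by less than the spread, uncalled values with a changed sign included, 21 lost the call, 10 gained it and 16 moved by more than the spread. *Rnu5g* in LY6C polysomal RNA against BM was called by DESeq2 (adjusted p = 0.0459) and by edgeR with no filter (0.0407), and *Rn7sk* in LY6G polysomal RNA against BM by DESeq2 (0.0199) and by edgeR with no filter (7.18e-07) or all counts as the scale (1.03e-05). The cause of these changes was not tested.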
